A study of Mus musculus with 577 samples.

Results

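The nuclear-encoded genes of the mitochondrial respiratory chain were followed in mice through single oocytes, granulosa cells and mESCs, pools of granulosa cells and bulk granulosa. They were taken as the protein-coding genes whose symbols start with Nduf, Uqcr, Atp5, Sdha, Sdhb, Sdhc or Sdhd, or with Cox4 to Cox8, with the exception of Cox6b2. The rule found 96 of 22060 protein-coding gene identifiers, which held 95 distinct symbols because Uqcrc1 has a second identifier, and this second identifier had 0 reads in all 562 libraries. The genes held 36 subunits of complex I, 4 of complex II, 9 of complex III, 17 of complex IV and 15 of complex V. Ndufa4 was counted in complex IV, with which it is found, and 11 genes were assembly factors. The other 4 (Ndufa4l2, Atp5s, Atp5sl and Cox7a2l) have symbols like those of subunits. They are called isoform relatives here, a label by symbol that does not state their function.

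The respiratory chain sits in the inner mitochondrial membrane. Complexes I and II take electrons from NADH and succinate, complex III passes them to cytochrome c, and complex IV hands them to oxygen. Complexes I, III and IV pump protons, and complex V, the ATP synthase, lets these protons flow back to make ATP. Most subunits are encoded in the nucleus and imported, while a small set of core subunits is encoded by mitochondrial DNA, and assembly factors build the complexes without being part of them. Growing oocytes accumulate mitochondria in large numbers and depend on them for ATP, while granulosa cells, the somatic cells around the oocyte, are known for glycolysis and feed pyruvate to the oocyte.

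The mESCs were 45 freshly dissociated cells and 36 cells isolated with laser capture microdissection (LCM) from alcohol-fixed cell-block sections, all of 1 culture batch under 2iLIF and amplified by SC3-seq or, after the DRaqL lysis with a denaturing detergent that is quenched before cDNA synthesis, by DRaqL-SC3-seq. Ovaries came from 8-wk-old female mice with no strain or treatment in the labels. From alcohol-fixed sections, 14 oocytes of primary follicles, 30 oocytes of secondary-to-antral follicles, 31 granulosa cells neighboring an oocyte and 26 non-neighboring granulosa cells were amplified by DRaqL-SC3-seq. The SMART-Seq v4 3′DE kit was used without DRaqL on 7 primary and 11 secondary-to-antral oocytes and with it on 6 and 9, each with granulosa cells. From sections fixed in formalin for 24 h, 5 primary and 7 secondary-to-antral oocytes and granulosa cells were amplified by DRaqL-Protease-Smart-seq2. This method adds a protease treatment to the lysis. From 1 mouse in proestrus, 8 secondary-to-antral oocytes and 70 granulosa cells were isolated with LCM and amplified by DRaqL-Smart-seq2, whereas 14 grown oocytes and 35 granulosa cells of its other ovary were dissociated from cumulus–oocyte complexes and amplified by Smart-seq2. Replicated samples were 7 neighboring and 7 non-neighboring pools of about 10 granulosa cells from early antral follicles and 7 samples of bulk granulosa, each the whole granulosa of a sectioned follicle. The stage of each bulk sample is not in the labels, and the methods of the study include follicles of unidentified stage beside early antral ones. Granulosa cells were further amplified by LCM-seq (37 cells) and DRaqL-Smart-seq2 (34 cells), with median shares of reads on the 96 genes of 2.88% and 2.98%.

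Libraries held from 12748 reads (a dissociated granulosa cell) to 17506401 reads (a section of an oocyte) on protein-coding genes. DRaqL-SC3-seq oocytes had a median of 1528484 reads, granulosa cells of 573406 and mESCs isolated with LCM of 1951462. Levels are given in RPM, scaled to the reads of the library on protein-coding genes, or as log2 (RPM+1). The reads came from 3′ ends, so levels of genes are per 3′ end and were not divided by length. Apart from pools, bulk granulosa and serial sections of oocytes, each library is 1 cell. After LCM, however, an oocyte library holds the part of the oocyte within a section, whereas dissociated oocytes are whole. Beyond the mouse in proestrus, no animal was named for the cells, so that a group of cells is 1 sample here. Differences between groups of cells are therefore values without a test, and SDs describe the spread over cells. The paper states that 1 ovary supplied the methods it compared, among them DRaqL-SC3-seq, SMART-Seq v4, DRaqL-SMART-Seq v4 and DRaqL-Protease-Smart-seq2. A like result in several of these preparations is therefore not a result in several animals.

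Marker genes fitted the labels. Oocyte markers summed to a median of 31847 RPM in DRaqL-SC3-seq oocytes and 570 RPM in granulosa cells, granulosa markers to 226 and 6480 RPM, and pluripotency markers to 1499 RPM in mESCs isolated with LCM. However, 16 of 57 granulosa cells, 13 of them neighboring, held oocyte markers at 10% or more of the level of the median oocyte, and so did 4 of 70 granulosa cells isolated with LCM and 3 of 35 dissociated granulosa cells of the same-mouse experiment. In addition, 7 pairs of libraries of the same group were far more alike than all others of their group, with 5 pairs among the primary follicle oocytes (r of 0.932 to 0.977, against 0.816 to 0.865 for the next most alike library), 1 among fresh mESCs and 1 among non-neighboring granulosa cells. The pairs still differed by more than sampling noise and were kept as labeled, and values with each pair counted once, which leaves 9 primary follicle oocytes, are given where they bear on a result.

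The share of reads on the 96 genes was calculated for every library. In DRaqL-SC3-seq it was 1.50% to 2.28% in primary follicle oocytes (median 2.02%), 1.161% to 2.13% in secondary-to-antral oocytes (1.50%), 1.31% to 2.50% in neighboring granulosa cells (1.76%), and 1.10% to 2.50% in non-neighboring granulosa cells (1.55%). Fresh mESCs had 1.24% to 2.67% (1.77%) and mESCs isolated with LCM 1.26% to 2.27% (1.73%). The ranges of these 6 groups overlapped. In SMART-Seq v4 the medians were 3.18% in oocytes of both stages and 2.44% in granulosa cells, and the dissociated cells of the same-mouse experiment did not overlap, at 1.66% to 2.09% in oocytes and 2.46% to 9.13% in granulosa cells. In DRaqL-SC3-seq, complex V took a median of 0.808% of the reads in mESCs isolated with LCM, 0.703% in granulosa cells and 0.422% in oocytes, whereas complex I took 0.322%, 0.492% and 0.510%, and the assembly factors 0.0331%, 0.0309% and 0.0677%.

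**Figure D1:**
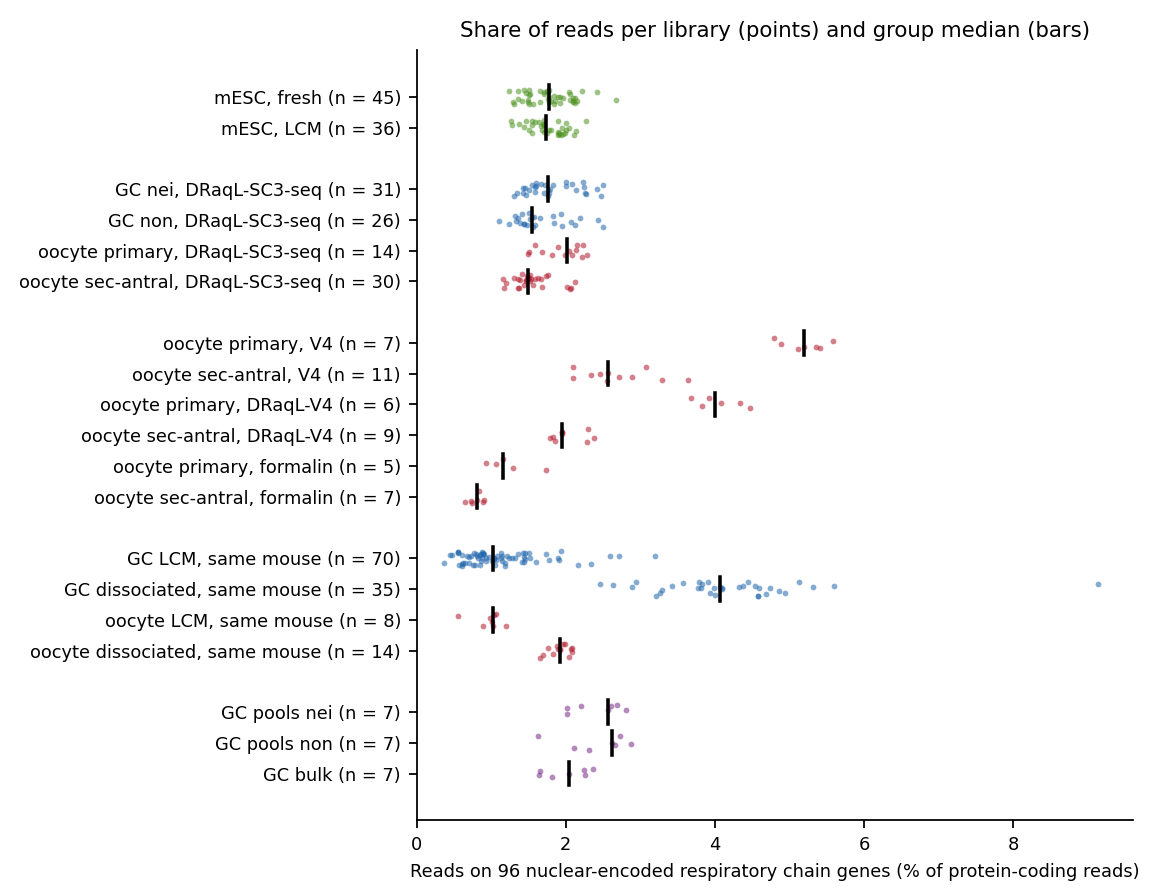
Share of reads on the 96 genes (x axis, percent of reads on protein-coding genes) for every library (points) in 19 groups, with the group median as a bar (GC, granulosa cells; nei and non, neighboring and non-neighboring; sec-antral, secondary-to-antral; V4, SMART-Seq v4). Primary follicle oocytes have a higher median than secondary-to-antral oocytes in each preparation, without overlap in SMART-Seq v4, DRaqL-SMART-Seq v4 and formalin, and dissociated granulosa cells of the same-mouse experiment have a median of 4.07% against 1.02% for those isolated with LCM.

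Oocytes of secondary-to-antral follicles gave a smaller share of their reads to the 96 genes than oocytes of primary follicles. With SMART-Seq v4 the share was 4.79% to 5.58% (median 5.19%) in 7 primary oocytes and 2.09% to 3.64% (2.57%) in 11 secondary-to-antral oocytes. With DRaqL-SMART-Seq v4 it was 3.68% to 4.48% (4.00%) and 1.78% to 2.37% (1.95%), and after formalin 0.924% to 1.74% (1.161%) and 0.643% to 0.910% (0.810%). In these 3 preparations the stages did not overlap, whereas in DRaqL-SC3-seq they did, and the ratio of the medians was 0.744 in DRaqL-SC3-seq, 0.495 in SMART-Seq v4, 0.488 in DRaqL-SMART-Seq v4 and 0.698 after formalin. The 13 subunits encoded by mitochondrial DNA went the same way, with ratios of 0.605, 0.508, 0.424 and 0.484.

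Gene by gene, a difference was read where the mean log2 (RPM+1) reached 4 in at least 1 stage, and a gene was counted as higher or lower from a difference of 1. In SMART-Seq v4, 31 of 89 genes at this level were lower in secondary-to-antral oocytes (17.7% of all protein-coding genes at the level were) and 5 were higher (32.7% of all), with a median difference of -0.79 against 0.28 over all genes. In DRaqL-SMART-Seq v4, 36 of 85 were lower (23.2% of all) and 5 higher (37.8%), with medians of -0.79 and 0.38, and after formalin 29 of 82 were lower (26.9%) and 7 higher (28.1%), with medians of -0.58 and -0.03. A secondary-to-antral oocyte of the formalin group (replicate 3) had a median level over the 96 genes of 4.08, against 5.86 to 6.28 in the other 6, and without it 22 of 83 were lower (21.3% of all genes) and 8 higher (34.9%), with medians of -0.40 and 0.31. In DRaqL-SC3-seq, 9 of 84 were lower (15.8%) and 8 higher (35.2%), with medians of -0.19 and 0.43. With the genes under the level included, the medians over the 96 genes were -0.13 in DRaqL-SC3-seq, -0.74, -0.78 and -0.54 in this order of preparations.

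Across the 4 preparations, 79 genes reached the level in all, and 41 of these were lower in secondary-to-antral oocytes in every preparation, whatever the size (21.9% of all genes at the level were). Genes that were higher in every preparation numbered 3 (38.4% of all), and they were the assembly factors of complex I Ndufaf2, Ndufaf4 and Ndufaf7. Without the formalin oocyte that stood apart, 39 were lower and 4 higher in every preparation. Per the paper, these preparations share an ovary, so that the counts repeat the preparation and not the animal. The medians by complex were -0.22, -0.85, -0.95 and -0.82 for complex I in DRaqL-SC3-seq, SMART-Seq v4, DRaqL-SMART-Seq v4 and formalin, -0.69, -1.21, -1.39 and -0.53 for complex IV, and -0.33, -0.87, -0.96 and -0.52 for complex V. Assembly factors at the level had medians of 1.13, 0.59, 0.78 and 1.18, opposite in sign to complexes I, IV and V in all 4 preparations. The family did not move as a whole, since Ndufaf1, Ndufaf3, Ndufaf5 and Sdhaf4 were below 0 in SMART-Seq v4 and after formalin. Of these, Ndufaf1, Ndufaf3 and Ndufaf5 did not reach the level in every preparation.

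**Figure D2:**
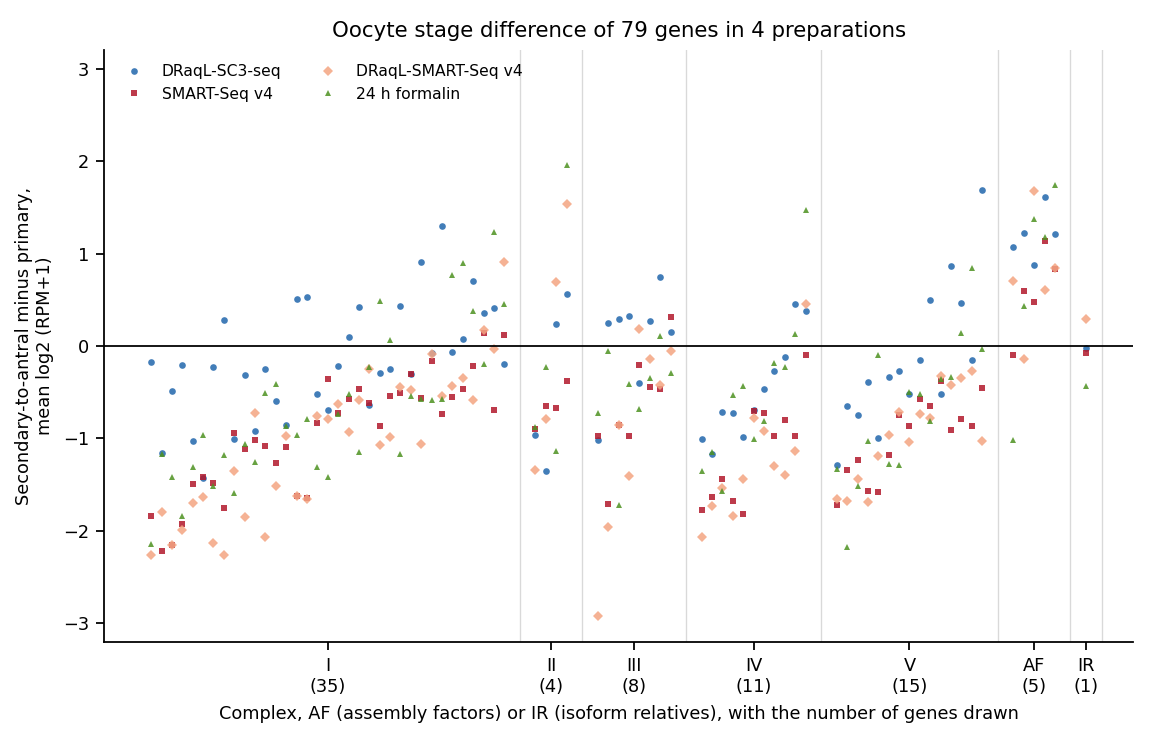
Difference of the mean log2 (RPM+1), secondary-to-antral minus primary follicle oocytes (y axis), for the 79 genes at the level in all 4 preparations, grouped by complex (x axis, number of genes in brackets; 1 symbol per preparation). Most subunits lie below 0 and the 5 assembly factors (AF) lie mostly above it, with points of every preparation on both sides of 0.

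Genes lower by at least 1 in every preparation numbered 5 (4.98% of all genes at the level were), and 0 were higher by as much (17%). The 5 were Ndufs8, an iron–sulfur subunit of complex I, Ndufa12, an accessory subunit of complex I, Ndufa4, Cox6c of complex IV and Atp5g3, which is a member of the family of genes for the c subunit of the rotor of ATP synthase. With each near-identical pair of libraries counted once, 3 of the 5 still passed, since the DRaqL-SC3-seq differences of Cox6c and Ndufa12 became -0.93 and -0.97. Without formalin replicate 3, the differences of Ndufs8 and Ndufa4 after formalin became -0.96 and -0.95. That of Ndufa7 became -1.45, so that it passed as well, and 4 genes passed in this setting. Of the 5, Atp5g3 alone passed in both settings, and 5 of 79 is near the share of all genes. Ndufs8 (chromosome 19, 3908863 to 3912774, GRCm38) was at 156 to 483 RPM (median 408) in primary and 34.1 to 130 RPM (85.8) in secondary-to-antral oocytes in SMART-Seq v4, and at 182 to 441 RPM (242) and 52.3 to 102.9 RPM (79.1) in DRaqL-SMART-Seq v4. The stages did not overlap in these preparations. They overlapped in DRaqL-SC3-seq, at 35.3 to 445 RPM (203) and 28.1 to 319 RPM (79.6), and after formalin, where 5 primary oocytes had 3.24, 22.5, 63.4, 104.6 and 63.9 RPM and 7 secondary-to-antral oocytes had 5.29 to 22.2 RPM (16.5). Its differences were -1.15 in DRaqL-SC3-seq, -2.22 in SMART-Seq v4, -1.80 in DRaqL-SMART-Seq v4 and -1.17 after formalin.

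Atp5g3 (chromosome 2, 73908447 to 73911326) was at 423 to 1104 RPM (648) in primary and 147 to 275 RPM (217) in secondary-to-antral oocytes in DRaqL-SMART-Seq v4, without overlap. In SMART-Seq v4 it was at 485 to 1037 RPM (892) and 79.2 to 928 RPM (227), and in DRaqL-SC3-seq at 66.1 to 1483 RPM (321) and 29.4 to 524 RPM (150). After formalin, the primary oocytes had 692, 227, 398, 411 and 421 RPM and the secondary-to-antral oocytes 125 to 234 RPM (157). The stages overlapped in these 3 preparations, and the differences were -1.28 in DRaqL-SC3-seq, -1.72, -1.66 and -1.33. The other c subunit genes, Atp5g1 and Atp5g2, differed by -0.33 and -0.52 in DRaqL-SC3-seq, -1.18 and -0.87 in SMART-Seq v4, -0.96 and -1.04 in DRaqL-SMART-Seq v4 and -1.28 and -0.50 after formalin.

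Cox6c did not overlap between the stages in SMART-Seq v4, at 1851 to 2462 RPM (2063) in primary and 280 to 1739 RPM (631) in secondary-to-antral oocytes, and in DRaqL-SMART-Seq v4, at 815 to 1365 RPM (1139) and 186 to 366 RPM (257). Ndufa4 was at 1497 to 2819 RPM (2452) and 307 to 1976 RPM (705) in SMART-Seq v4, with overlapping stages. The differences were -1.0, -1.78, -2.07 and -1.35 for Cox6c, -1.17, -1.63, -1.73 and -1.15 for Ndufa4 and -1.03, -1.50, -1.70 and -1.30 for Ndufa12, in the order DRaqL-SC3-seq, SMART-Seq v4, DRaqL-SMART-Seq v4 and formalin.

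The genes with the largest differences varied by preparation. In DRaqL-SC3-seq the lowest were Ndufa7, an accessory subunit of complex I (-1.43), and Sdhc, a membrane anchor of complex II (-1.36), before Atp5g3, Ndufa4 and Ndufs8. In SMART-Seq v4 Cox4i2 and Ndufs8 were followed by the assembly factor Ndufaf1 (-2.16) and the accessory subunits Ndufa3 (-2.16) and Ndufa5 (-1.93) of complex I. In DRaqL-SMART-Seq v4 they were Uqcrc1, a core protein of complex III (-2.92), and the complex I subunits Ndufa1 (-2.26), Ndufs6 (-2.26), Ndufa3 (-2.16) and Ndufa13 (-2.13), and after formalin Atp5j (-2.18), Ndufa1 (-2.15), Ndufa5 (-1.83), the complex III subunit Uqcrb (-1.72) and Ndufs7 (-1.59). Next to Sdhaf1, the highest were Atp5k (1.69), Ndufaf2 (1.61), Ndufa2 (1.30) and Sdhaf2 (1.22) in DRaqL-SC3-seq, Atp5sl (2.55), Ndufaf6 (2.11), Sdhaf3 (2.06) and Ndufaf2 (1.13) in SMART-Seq v4, and Sdhaf3 (1.87), Ndufaf7 (1.67), Sdhd (1.54) and Ndufaf6 (1.50) in DRaqL-SMART-Seq v4. After formalin they were Atp5sl (3.29), Sdhd (1.96), Ndufaf4 (1.75), Cox5a (1.47) and Ndufaf7 (1.38).

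A pair of isoforms of complex IV differed between the stages at low levels. Cox4i2, the isoform of subunit 4 known from lung and low oxygen, was at 19.8 to 63.4 RPM (median 35.9) in 7 of 7 primary oocytes and 0 to 25.1 RPM (1.15) in secondary-to-antral oocytes in SMART-Seq v4, with a read in 8 of 11. It was at 0.674 to 38.4 RPM (16.6) and 0 to 7.95 RPM (0) in DRaqL-SC3-seq, with a read in 14 of 14 and 13 of 30 oocytes, and at 4.28 to 20.4 RPM (8.16) and 0 to 5.34 RPM (0) in DRaqL-SMART-Seq v4, with a read in 6 of 6 and 4 of 9. After formalin, the primary oocytes had 20.5, 1.50, 17.6, 4.87 and 0 RPM, and 3 of 7 secondary-to-antral oocytes had a read, at up to 6.38 RPM. The differences were -2.94, -3.57, -2.55 and -1.74, and most primary oocytes stood above most secondary-to-antral oocytes, although the ranges overlapped. Cox4i1, the common isoform of the same subunit, differed by -0.69, -0.70, -0.78 and -1.01.

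Cox6a2, known as the isoform of subunit 6a of heart and skeletal muscle, went the other way. No read was found in 7 primary oocytes in SMART-Seq v4 (0 of 7 allows a share of cells with a read of up to 42.9%) and in 6 in DRaqL-SMART-Seq v4 (up to 50.0%), and 2 of 14 primary oocytes in DRaqL-SC3-seq and 1 of 5 after formalin had reads, at up to 0.768 and 1.00 RPM. Secondary-to-antral oocytes had reads in 20 of 30 cells in DRaqL-SC3-seq (0 to 43.1 RPM, median 3.62), 8 of 11 in SMART-Seq v4 (0 to 49, 7.48), 7 of 9 in DRaqL-SMART-Seq v4 (0 to 32.5, 18.9) and 6 of 7 after formalin (0 to 23.9, 3.53). No primary oocyte of the 4 preparations was above 1.00 RPM, whereas secondary-to-antral oocytes with no read were found in each. The differences were 2.21, 2.98, 3.33 and 2.24. Cox6a2 had a read in 5 of 8 oocytes isolated with LCM and 12 of 14 dissociated oocytes of the same-mouse experiment, in 2 of 70 granulosa cells isolated with LCM from that mouse (171 and 2.81 RPM), 2 of 34 by DRaqL-Smart-seq2 (up to 25.97 RPM) and 1 of 34 by SMART-Seq v4 (10.7 RPM), but in 0 of 57 DRaqL-SC3-seq granulosa cells (which allows up to 5.26%), 0 of 36 mESCs isolated with LCM (up to 8.33%) and 0 of 45 fresh mESCs (up to 6.67%). Cox6a1, the common isoform, was at 202 to 927 RPM (371) in all 44 DRaqL-SC3-seq oocytes.

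Sdhaf1, which helps to build the iron–sulfur subunit of complex II, was the assembly factor with the largest difference in DRaqL-SC3-seq, SMART-Seq v4 and DRaqL-SMART-Seq v4. It was at 0 to 17.5 RPM (2.42) in primary and 12.4 to 87.3 RPM (43.2) in secondary-to-antral oocytes in DRaqL-SC3-seq, 0 to 40.8 RPM (0) and 0 to 89.2 RPM (40.4) in SMART-Seq v4, and 0 to 32.7 RPM (0) and 29 to 65.4 RPM (36.3) in DRaqL-SMART-Seq v4. After formalin, the primary oocytes had 1.08, 2.00, 0, 0 and 0 RPM and the secondary-to-antral oocytes 0 to 30.7 RPM (9.42). The ranges overlapped in every preparation, through a few oocytes, and the differences were 3.54, 3.66, 3.88 and 2.73. Ndufaf4, at 123 to 173 RPM (139) in primary and 157 to 319 RPM (260) in secondary-to-antral oocytes in SMART-Seq v4, differed by 1.21, 0.83, 0.85 and 1.75, Ndufaf2 by 1.61, 1.13, 0.60 and 1.18, and Ndufaf7, a methyltransferase that acts on a core subunit of complex I, by 0.87, 0.48, 1.67 and 1.38. Some members did not keep one direction in all preparations. For example, the assembly factor Ndufaf1 differed by 0.38 in DRaqL-SC3-seq and by -2.16, -1.89 and -2.26 in the others, and Sdhd, a membrane anchor of complex II, by 0.56, -0.38, 1.54 and 1.96.

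**Figure D3:**
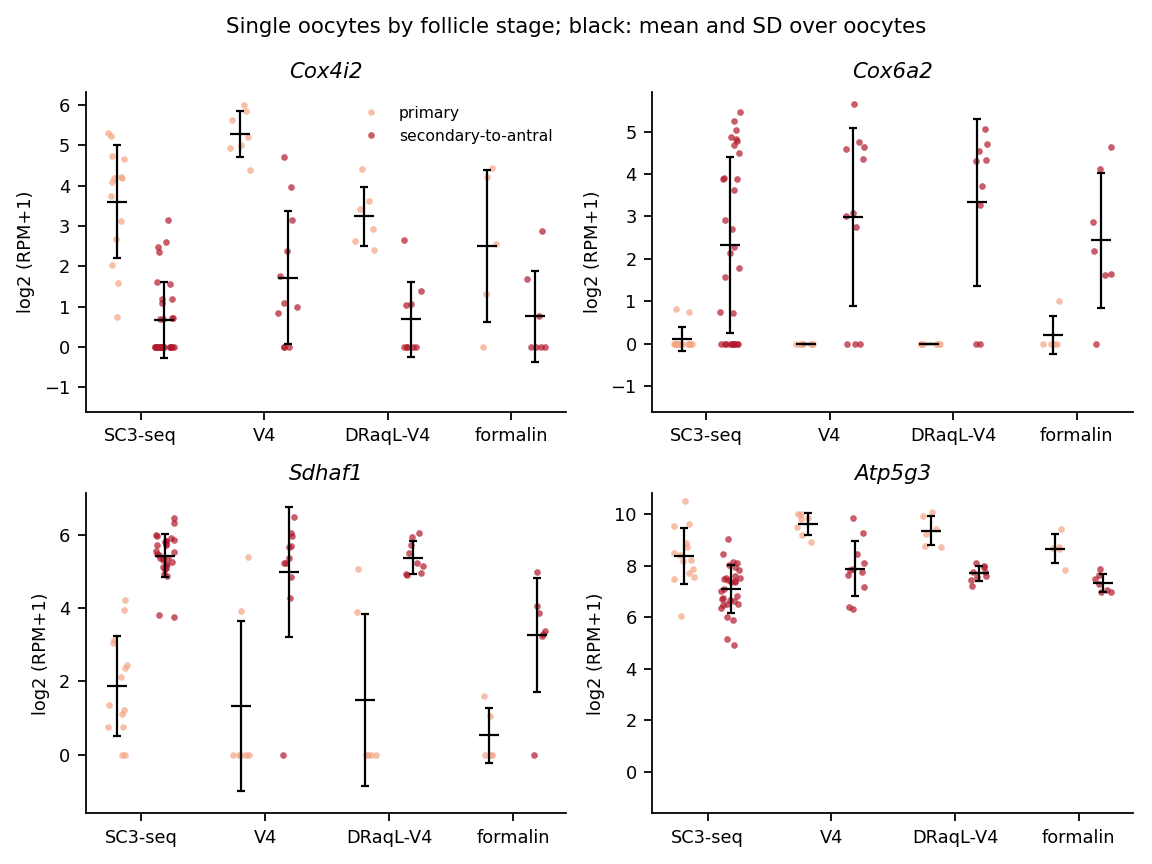
Levels of Cox4i2, Cox6a2, Sdhaf1 and Atp5g3 as log2 (RPM+1) (y axis) in single oocytes (points) of primary and secondary-to-antral follicles in 4 preparations (x axis), with the mean and SD over oocytes in black. Cox4i2 and Atp5g3 are lower and Cox6a2 and Sdhaf1 higher in secondary-to-antral oocytes in each preparation, and the points show how far the stages overlap.

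The promoters of 4 of these genes, 2 of them lower and 2 higher in secondary-to-antral oocytes, are shown with the motif of Nrf1, a transcription factor known for binding at genes of the respiratory chain. Sequences are from RefSeq for GRCm38.p6 and run from 250 bases before to 50 bases after the annotated gene start. Capitals mark the match to GCGCANGCG on either strand. The positions are chr19:3912725-3913024 on the minus strand for Ndufs8, chr2:73911277-73911576 on the minus strand for Atp5g3, chr7:30322326-30322625 on the minus strand for Sdhaf1 and chr4:24897833-24898132 on the plus strand for Ndufaf4.
Ndufs8: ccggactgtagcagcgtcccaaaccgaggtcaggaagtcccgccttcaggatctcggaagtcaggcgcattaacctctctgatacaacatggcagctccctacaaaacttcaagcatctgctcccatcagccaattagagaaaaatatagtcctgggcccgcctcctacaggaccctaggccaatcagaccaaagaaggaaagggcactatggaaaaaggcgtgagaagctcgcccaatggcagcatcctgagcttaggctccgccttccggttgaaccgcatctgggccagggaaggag
Atp5g3: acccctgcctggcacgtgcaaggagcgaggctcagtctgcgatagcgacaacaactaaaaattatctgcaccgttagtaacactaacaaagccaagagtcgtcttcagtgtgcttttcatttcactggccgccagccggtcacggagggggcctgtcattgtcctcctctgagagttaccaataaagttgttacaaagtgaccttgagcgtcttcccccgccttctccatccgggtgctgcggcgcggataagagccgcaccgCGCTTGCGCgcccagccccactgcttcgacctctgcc
Sdhaf1: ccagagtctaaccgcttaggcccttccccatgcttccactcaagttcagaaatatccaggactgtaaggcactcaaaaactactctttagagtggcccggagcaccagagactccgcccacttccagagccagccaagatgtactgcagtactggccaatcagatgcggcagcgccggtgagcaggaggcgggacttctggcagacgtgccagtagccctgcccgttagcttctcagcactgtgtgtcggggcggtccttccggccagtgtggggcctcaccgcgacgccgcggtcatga
Ndufaf4: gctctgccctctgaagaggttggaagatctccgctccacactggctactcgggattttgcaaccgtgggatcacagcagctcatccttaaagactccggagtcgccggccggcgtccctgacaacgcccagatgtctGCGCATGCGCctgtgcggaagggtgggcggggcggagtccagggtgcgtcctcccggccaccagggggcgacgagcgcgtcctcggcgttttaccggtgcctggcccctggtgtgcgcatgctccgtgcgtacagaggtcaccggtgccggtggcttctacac
Atp5g3, which was lower, and Ndufaf4, which was higher, held the motif, with 2 overlapping matches in Ndufaf4, and Ndufs8 and Sdhaf1 did not hold it within these windows. Of 79 genes of the respiratory chain with a promoter in the RefSeq table, 24 (30.4%) held GCGCANGCG on either strand, against 9.63% of 17492 protein-coding genes. AAGATGGC, a Yy1 motif, was in 11 (13.9%, against 3.57%), and CCGGAAGT, a motif of Ets factors and GABP, in 5 (6.33%, against 5.69%). The motifs were counted apart, matches of different motifs can overlap by their end bases, and a match is a description of the sequence alone. At least 1 of the 3 motifs was found in 37 of the 79 genes (46.8%), against 17.1% of the 17492 protein-coding genes. By family, it was found in 15 of 32 genes of complex I, 2 of 3 of complex II, 3 of 5 of complex III, 2 of 12 of complex IV, 10 of 14 of complex V, 4 of 10 assembly factors and 1 of 3 isoform relatives.

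Genes of other mitochondrial lists are given with the shares of all genes. Of 13 genes of the citrate cycle, all at the level in DRaqL-SC3-seq, 5 were lower (15.8% of all genes) and 1 higher (35.2%). In SMART-Seq v4 4 of 13 were lower (17.7%) and 1 higher (32.7%), in DRaqL-SMART-Seq v4 3 of 13 were lower (23.2%) and 3 higher (37.8%), and after formalin 2 of 12 were lower (26.9%) and 2 higher (28.1%). Cs, the citrate synthase at the entry of the cycle, was higher in secondary-to-antral oocytes by 0.94, 0.87, 2.38 and 1.98 in the 4 preparations, whereas Idh3g, a subunit of isocitrate dehydrogenase, differed by -1.19, -2.50, -2.22 and -3.09. Cycs, the cytochrome c that carries electrons from complex III to complex IV, was higher by 1.97, 0.63, 1.18 and 1.64, whereas Cyc1, the cytochrome within complex III, differed by -0.48, -1.81, -1.80 and -1.31. Of 31 assembly factors outside the 96 genes, 2 were lower and 5 higher of 20 at the level in DRaqL-SC3-seq, 5 and 4 of 24 in SMART-Seq v4, 9 and 5 of 24 in DRaqL-SMART-Seq v4 and 7 and 2 of 19 after formalin, to be read against the same shares of all genes.

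Markers of granulosa cells moved with stage in the oocyte libraries. Their sum over 10 genes had a median of 587 RPM in primary and 155 RPM in secondary-to-antral oocytes in DRaqL-SC3-seq, 671 and 389 RPM in SMART-Seq v4, 414 and 224 RPM in DRaqL-SMART-Seq v4 and 956 and 528 RPM after formalin, and Inha, the most abundant of them, summed to 377 and 162 RPM in DRaqL-SC3-seq. In DRaqL-SC3-seq, 5 of the 10 were lower and 5 higher in secondary-to-antral oocytes, and Amh, Inhba and Cyp19a1 had a median of 0 RPM in primary oocytes. The part of granulosa RNA in the stage differences was not tested. In DRaqL-SC3-seq granulosa cells, the mean levels of Ndufa4 (5.79), Cox6c (6.04), Ndufs8 (5.21) and Ndufa12 (4.35) on the log2 scale were below those in primary oocytes, whereas that of Atp5g3 (9.51) was above. Cells without a read lower such means, so that these levels do not decide the part of granulosa RNA. With each near-identical pair counted once, the DRaqL-SC3-seq median was -0.13, with 6 of 84 genes lower (14.7% of all genes) and 8 higher (36.3%).

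Between cell types, the result depended on whether means of logarithms over cells or summed counts were compared. On the mean of log2 (RPM+1) over cells, DRaqL-SC3-seq oocytes exceeded granulosa cells by a median of 1.59 over 84 genes at the level (1.53 over all 96), with 61 higher and 3 lower, but 80.8% of all genes at the level were higher and 6.05% lower, and the median of all was 2.73. A granulosa cell had a read on a median of 75 of the 96 genes and an oocyte on 91, and each cell without a read pulls the mean of the logarithms down. Summed counts also weight cells by their reads, and the part of each in the change was not tested. In summed counts, scaled to the total, oocytes and granulosa cells differed by a median of 0.27 over 87 genes, with 18 higher (28% of all) and 16 lower (26.9%), against -0.02 over all genes. SMART-Seq v4 gave a median of 1.97 on the mean log scale (69 higher against 81.8% of all genes, and 1 lower against 5.06%, of 83) and 0.30 in summed counts, and formalin 1.03 (41 against 57.7%, and 1 against 10.7%, of 78) and 0.02. These values are relative to the reads of a cell. Per spike-in read, an oocyte library held 19.6 times the reads of a granulosa cell library in SMART-Seq v4 and 17.3 times after formalin, at the medians. These oocyte libraries hold sections of oocytes and not whole oocytes.

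In summed counts, where 26.9% of all genes were lower and 28% higher, 7 of 15 genes of complex V were lower and 3 higher in oocytes, with a median of -0.74, and 2 of 11 assembly factors were lower and 5 higher, with a median of 0.87. Atp5g3 was at 29.4 to 1483 RPM (182) in 44 oocytes and 16.3 to 3184 RPM (797) in 57 granulosa cells, a difference of -2.0 on the mean log scale. Atp5b, the catalytic beta subunit of ATP synthase, was at 167 to 925 RPM (390) and 32 to 3582 RPM (1137), with a difference of -1.27, and Atp5j, a subunit of the stalk, at 35.3 to 377 RPM (153) and 7.32 to 2384 RPM (422), with -1.21. These 3 genes were the ones lower by 1 or more in oocytes, and Atp5g2 and Atp5a1 followed with -0.97 and -0.56. The ranges over cells overlapped for each. In SMART-Seq v4 the lowest were Atp5g3 (-1.39), Atp5g2 (-0.51), Atp5b (-0.46), Atp5j (-0.20) and Cox7c (0.12), and after formalin Atp5j (-1.08), Atp5g3 (-0.94), Atp5b (-0.91), Ndufs4 (-0.84) and Ndufb8 (-0.68).

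Ndufaf4 was the gene with the largest difference in the other direction, at 13.1 to 699 RPM (187) in oocytes, all with a read, and 0 to 1143 RPM (1.62) in granulosa cells, with a read in 31 of 57, a difference of 4.89. In summed counts, Ndufaf4 was at 191 RPM (exact Poisson 95% interval 188 to 195) and 77.2 RPM (74.3 to 80.3), intervals that cover counting error alone. Ndufaf3, Ndufaf7, Atp5sl (counted here with the isoform relatives) and the complex I subunit Ndufa9 followed with 4.51, 4.47, 4.14 and 3.99. In SMART-Seq v4 the highest were Ndufaf4 (5.99) and the complex I subunits Ndufa9 (5.03), Ndufb7 (4.67), Ndufs8 (4.47) and Ndufa11 (4.45), and after formalin Ndufaf4 (4.27), Ndufaf2 (3.08), Sdhaf4 (2.89), Sdhaf2 (2.72) and the complex I subunit Ndufb2 (2.55). Of the mitochondrially encoded subunits, 9 of 12 at the level were lower (6.05% of all genes) and 1 higher (80.8%) in oocytes on the mean log scale, with a median of -1.82, and 10 of 13 were lower (26.9%) and 0 higher (28%) in summed counts, with a median of -1.78 and with median shares of reads of 1.38% in oocytes and 5.22% in granulosa cells. All 13 citrate cycle genes were at the level, with 9 higher (80.8% of all genes) and 0 lower (6.05%) on the mean log scale and 0 higher (28%) and 2 lower (26.9%) in summed counts.

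Against mESCs isolated with LCM, oocytes differed by a median of 0.77 over 86 genes on the mean log scale (0.74 over all 96), with 40 higher (53.7% of all) and 14 lower (19.4%), against 1.24 over all genes, and by 0.68 in summed counts, with 37 higher (43%) and 14 lower (21.4%) of 87. Complex II was lower, at a median of -1.97 with 3 of 4 genes lower by 1 or more, and -1.90 in summed counts. Sdhd was at 2.57 to 44.7 RPM (15.9) in oocytes and 67.8 to 402 RPM (191) in mESCs, which did not overlap, a difference of -3.36. Ndufs1, the large iron–sulfur subunit of complex I, Uqcrc1, a core protein of complex III, and Sdhb, the iron–sulfur subunit of complex II, were lower by 3.35, 2.93 and 2.45. Atp5b was at 1456 to 3885 RPM (2796) in mESCs, above all oocytes, with a difference of -2.73. In contrast, the small subunits Atp5k and Atp5e of ATP synthase and Ndufa2 of complex I were higher in oocytes by 3.97, 3.68 and 3.62, and the assembly factors Ndufaf7 and Sdhaf4 by 3.51 and 3.34. Atp5k was at 17.8 to 314 RPM (145) in oocytes and 0.492 to 24.1 RPM (6.68) in mESCs.

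Granulosa cells differed from mESCs isolated with LCM by a median of -0.90 over 78 genes on the mean log scale (-0.80 over all 96), with 36 lower (69.4% of all) and 6 higher (12.1%), against -2.01 over all genes. In summed counts the direction turned, with a median of 0.48 over 84 genes, 22 higher (40.0%) and 7 lower (18.4%), against 0.54 over all genes. The genes of complex II were lower on both scales, with medians of -3.12 and -0.98. Sdhd was at 0 to 294 RPM (4.52), with a read in 37 of 57 granulosa cells and a difference of -4.45, and Atp5sl, Ndufs1, the Rieske protein Uqcrfs1 of complex III and Ndufaf4 were lower by 3.60, 3.59, 3.50 and 3.46 on the mean log scale, of which Ndufs1 was at 156 RPM against 150 RPM in summed counts and so did not keep its direction. Atp5k, Ndufa3, Atp5e, Ndufa2 and Uqcrq, small subunits of complexes V, I and III, were higher by 1.96, 1.92, 1.88, 1.41 and 1.33.

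**Figure D4:**
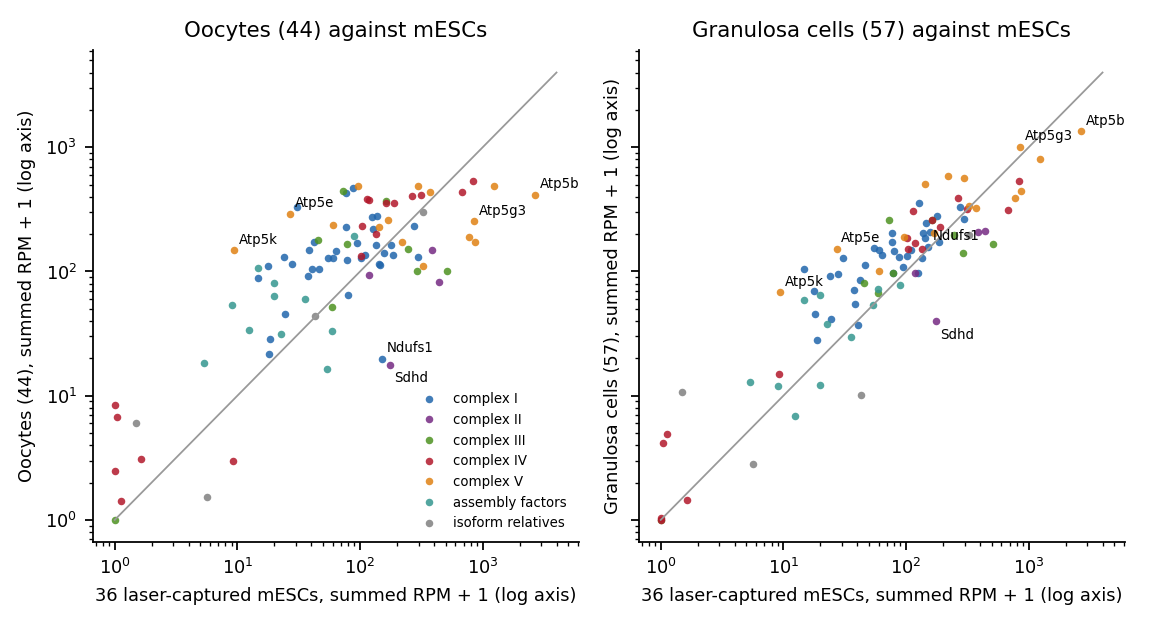
Summed RPM plus 1 of the 96 genes in 44 oocytes (left) and 57 granulosa cells (right) against 36 mESCs isolated with LCM, all by DRaqL-SC3-seq (log axes, 1 point per gene, color by complex; the line marks equal values). Atp5k and Atp5e lie above the line and Sdhd and Atp5b below it in both panels, while Atp5g3 is below the line in oocytes.

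The genes with the highest levels also differed. In mESCs isolated with LCM these were Atp5b (11.34 ± 0.37, mean log2 and SD over 36 cells), Atp5a1 (10.24), Atp5f1 (9.69), Atp5g3 (9.68) and Cox4i1 (9.54), and in granulosa cells Atp5b (9.88 ± 1.55, 57 cells), Atp5g3 (9.51), Atp5a1 (9.42), Atp5j (8.44) and Atp5o (8.31). The 44 oocytes of both stages had Cox4i1 (8.94 ± 0.62), Atp5a1 (8.85), Ndufa11 (8.85), Atp5o (8.82) and Atp5j2 (8.80), which lie within 1 SD of each other, but the order differed between the stages. In the 14 primary oocytes it was Cox4i1 (9.41 ± 0.49), Atp5o (9.09), Cox6c (9.03), Cox7b (8.99) and Atp5a1 (8.96), and in the 30 secondary-to-antral oocytes Atp5j2 (9.08 ± 0.30), Uqcrq (8.91), Ndufa11 (8.87), Atp5a1 (8.80) and Cox5a (8.77). Atp5b was the highest gene in mESCs, pools, bulk granulosa and neighboring granulosa cells by DRaqL-SC3-seq, and was at 8.61 ± 0.50 in oocytes. In non-neighboring cells by DRaqL-SC3-seq, Atp5g3 and Atp5b were alike (9.81 and 9.80), and in SMART-Seq v4 granulosa cells of either position, with and without DRaqL, Atp5g3 was the highest.

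Among the isoforms of tissues, Cox8c, known from testis, had a read in 20 of 44 DRaqL-SC3-seq oocytes (45.5%, exact 95% interval 30.4% to 61.2%, which covers the sampling of cells alone), 1 of 57 granulosa cells and 0 of 36 and 0 of 45 mESCs, at up to 20.2 RPM. It was read in 11 of 14 dissociated oocytes, but in 0 of 8 oocytes isolated with LCM from the same mouse (which allows up to 37.5%). Granulosa cells had a Cox8c read in 5 of 34 by DRaqL-Smart-seq2, 4 of 39 by DRaqL-SMART-Seq v4 and 3 of 37 by LCM-seq. The counts were 1 of 34 by SMART-Seq v4, 1 of 35 dissociated cells, 0 of 70 same-mouse cells isolated with LCM (which allows up to 4.29%) and 0 of 24 after formalin (up to 12.5%). Cox8b had a read in 34 of 36 mESCs isolated with LCM (median 7.50 RPM), 30 of 44 oocytes and 33 of 57 granulosa cells by DRaqL-SC3-seq, and in 0 of 18 SMART-Seq v4 oocytes (which allows up to 16.7%). Cox7a1 had a median of 12.4 RPM in SMART-Seq v4 primary oocytes and 0 RPM in secondary-to-antral oocytes, with reads in 5 of 7 and 4 of 11. In DRaqL-SC3-seq, 2 of 14 primary and 12 of 30 secondary-to-antral oocytes had a Cox7a1 read. Its stage differences were of mixed direction, at 0.34 in DRaqL-SC3-seq, -1.95 in SMART-Seq v4, -2.56 in DRaqL-SMART-Seq v4 and 0.10 after formalin. Cox7b2 and Ndufa4l2 were at a median of 0 RPM in oocytes, granulosa cells and mESCs of DRaqL-SC3-seq. Cox8a, Cox6a1 and Cox4i1, the common isoforms, had reads in all 44 oocytes.

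The isolation method left the genes near their level in mESCs. Of 76 genes at the level, 0 differed by 1 or more between mESCs isolated with LCM and fresh mESCs (8.29% of all genes were lower and 0.857% higher), and the median difference was 0.05 (0.03 over all 96) against -0.17 over all genes. One cell labeled as isolated with LCM is listed as fresh in a source table of the study, and without it the median was 0.04 and 0 genes differed by 1 or more. The largest were -0.71 for Ndufs7, an iron–sulfur subunit of complex I, at 1.35 to 196 RPM (65.3) after LCM and 12.3 to 208 RPM (87.9) in fresh cells, and 0.49 for Ndufaf4. Ndufc2 (-0.56), Ndufv2 (-0.55) and Atp5d (-0.47) were among the lowest and Cox5a (0.42), Ndufa7 (0.38), Atp5g2 (0.36) and Ndufb2 (0.35) among the highest. The 11 genes of complex IV at the level had a median of 0.14, against -0.17 over all genes, and none differed by 1 or more. The differences of the 76 genes were smaller than the SD over cells in both groups, except that of Atp5o, an ATP synthase subunit of the stalk, at -0.63.

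In the same-mouse experiment, the genes were lower in cells isolated with LCM. Granulosa cells isolated with LCM gave 0.371% to 3.19% of their reads (1.02%) to the 96 genes and dissociated granulosa cells 2.46% to 9.13% (4.07%), with a ratio of medians of 0.251. Oocytes gave 0.556% to 1.20% (1.02%) and 1.66% to 2.09% (1.92%), without overlap and with a ratio of 0.529. In granulosa cells, 73 of 78 genes at the level were lower (40.8% of all genes) and 0 higher (31.7%), with a median of -2.38 (-2.23 over all 96) against -0.41 over all genes, and -2.18 in summed counts. The cells that held oocyte markers were kept, and without them 73 of 77 were lower, with medians of -2.48 and -0.49. In oocytes, 44 of 86 were lower (20.2%) and 1 higher (20.0%), with medians of -1.04 (-0.98 over all 96) and -0.05, and -0.82 in summed counts. The method of isolation, the lysis, the ovary and the origin of the cells differ together here and cannot be told apart. The dissociated oocytes were grown oocytes and the granulosa cells those of cumulus–oocyte complexes, whereas the oocytes isolated with LCM came from secondary-to-antral follicles. The part captured differs with them, since LCM took cells from sections and dissociation took whole cells. Blood markers reached 49954 RPM in a dissociated granulosa cell and theca markers 13889 RPM in a granulosa cell isolated with LCM, and their part in the difference was not tested.

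Sdhd was lower after LCM in both cell types, at 1.74 to 63.1 RPM (24.7) in oocytes isolated with LCM and 217 to 494 RPM (331) in dissociated oocytes, with differences of -4.35 in oocytes and -4.40 in granulosa cells. Cox5a, a subunit of complex IV, was at 19.2 to 383 RPM (291) and 852 to 1136 RPM (1010) in oocytes, and differed by -2.45 in oocytes and -4.15 in granulosa cells. Neither gene overlapped between the oocytes. Uqcrfs1 (-4.84), Ndufs7 (-4.31) and Ndufb9 (-4.22) were among the lowest in granulosa cells, and Ndufa1 (-2.20), Ndufa4 (-2.18) and Ndufa12 (-2.17) in oocytes. Uqcrc1 was the gene higher in oocytes isolated with LCM, at 8.61 to 40.4 RPM (14) against 0 to 12.0 RPM (0), a difference of 3.09, and dissociated oocytes had a read in 6 of 14. The next were Ndufb7 (0.60), Ndufa10 (0.47), Atp5d (0.32) and Ndufs8 (0.22). Ndufaf4, Ndufaf2, Ndufa10, Atp5g2 and Ndufs4 differed least in granulosa cells, by -0.16, -0.19, -0.27, -0.67 and -0.91.

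**Figure D5:**
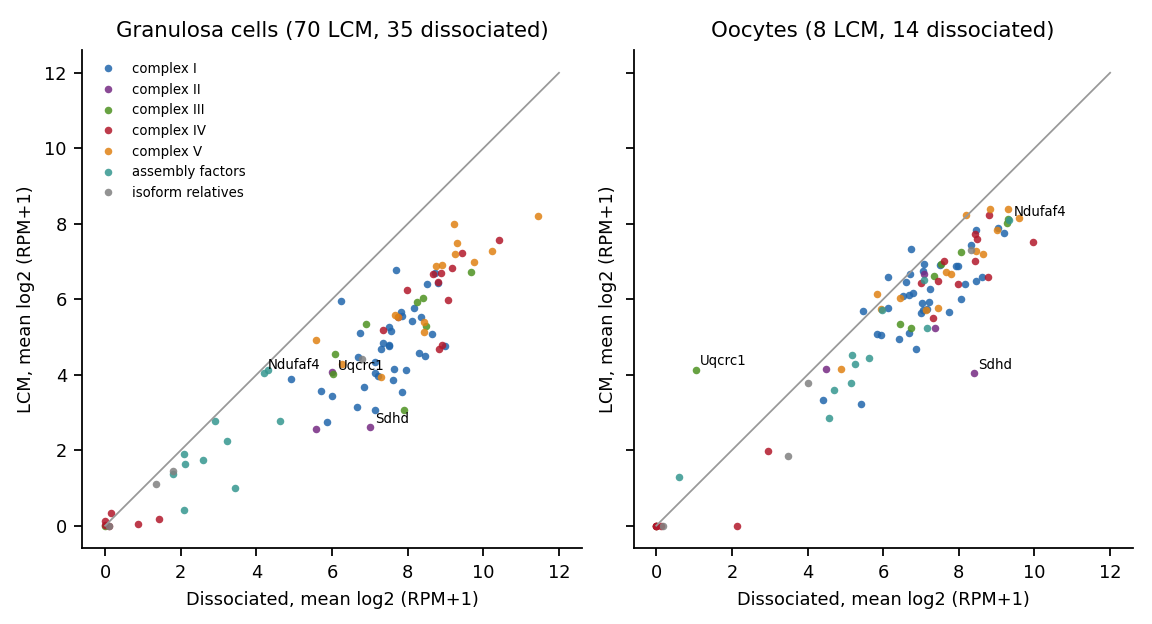
Mean log2 (RPM+1) of the 96 genes after LCM (y axis) and after dissociation (x axis) in granulosa cells (left, 70 and 35 cells) and oocytes (right, 8 and 14 cells) of 1 mouse, with 1 point per gene and the line of equal values. Nearly all genes lie below the line, further below in granulosa cells, and Uqcrc1 in oocytes lies above it.

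The pools asked whether granulosa cells next to the oocyte differ from those away from it. The 96 genes took 2.01% to 2.81% of the reads (median 2.56%) in 7 neighboring pools and 1.63% to 2.87% (2.62%) in 7 non-neighboring pools, from libraries of 3811945 to 8259281 reads. In edgeR's quasi-likelihood test, 0 of 88 genes tested passed an adjusted p of 0.05, where 0.453% of all 9704 genes passed, and 2 had an unadjusted p under 0.05 (2.27%, against 4.14% of all genes). DESeq2 called 1, Cox4i2, which was too low for the edgeR test and had 0, 0, 29.4, 0, 0, 63.6 and 1.157 RPM in the neighboring pools and at most 0.200 RPM in the others. Cox6c was at 128 to 487 RPM (283) in neighboring and 300 to 635 RPM (368) in non-neighboring pools, with a log2 fold change of -0.75 (SE 0.34, adjusted p = 0.998), and Ndufa3, an accessory subunit of complex I, at 38.6 to 295 RPM (101.9) and 36.2 to 475 RPM (295), with -1.17 (SE 0.55, adjusted p = 0.998). Both overlapped between the positions. The next genes were Ndufc1 (-1.07), Ndufa12 (-1.05) and Ndufb2 (-0.85) in the lower direction and Ndufb10 (1.12), Ndufaf7 (3.14), Atp5sl (2.38), Atp5o (0.45) and Atp5g1 (0.54) in the higher, and none of them passed. Of the 88 genes, 50 were below 0 and 38 above, with a median of -0.14 against -0.01 over all genes, and the SE of a gene was 0.50 at the median and 0.26 to 1.79 at the ends. Oocyte markers were higher in neighboring pools in 9 of 14 genes, and theca markers had a median of 0.477 RPM in neighboring and 222 RPM in non-neighboring pools. Less RNA per cell and fewer cells of a type cannot be told apart in pools and bulk.

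Bulk granulosa held 1.64% to 2.36% of its reads (2.05%) on the 96 genes. Stage was not matched to that of the early antral pools. Against the mean of the pools, 0 of 90 genes passed an adjusted p of 0.05 in edgeR, where 0.101% of 11917 genes passed, and 12 had an unadjusted p under 0.05 (13.3%, against 6.23% of all genes). DESeq2 called 0 of them. Ndufb8, an accessory subunit of complex I, was at 171 to 342 RPM (259) in bulk, 278 to 803 RPM (509) in neighboring and 131 to 664 RPM (445) in non-neighboring pools, with a log2 fold change of -0.96 (SE 0.31, adjusted p = 0.363). Uqcrh, the hinge protein of complex III, was at 497 to 773 RPM (546) in bulk against 64.8 to 617 RPM (321) and 265 to 540 RPM (329), with 0.76 (SE 0.28, adjusted p = 0.475). The ranges overlapped for both genes. The next genes were Ndufab1 (-1.44), Ndufs8 (-1.37), Ndufv2 (-0.88) and Atp5h (-0.78) in the lower direction and Ndufb5 (0.81), Ndufb2 (0.34), Sdhaf1 (1.13) and Ndufv1 (0.32) in the higher, none of which passed, and 69 genes were below 0 and 21 above, with a median of -0.31 against -0.09 over all genes. With upper-quartile scaling 46 were below 0 and 44 above, with a median of -0.02 against 0.18. Under this scaling 5 of the 90 genes had an unadjusted p under 0.05 in edgeR, and 751 of all 11917 genes did. The p-values cover the spread between these samples, since no animals were named.

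Serial sections gave the spread between 2 sections of an oocyte, in which measurement error and differences within the oocyte cannot be told apart. In 8 oocytes, each captured as a pair of sections, the 96 genes took 1.21% to 1.56% of the reads, and over 82 genes at the level the SD between sections of an oocyte was 0.35 on the log2 scale at the median, against 0.28 between the means of the oocytes. For all 7221 genes at the level these were 0.44 and 0.40. Over the 96 genes, r was 0.965 at the median for 2 sections of an oocyte (0.884 to 0.983), and for sections of other oocytes 0.954 (0.884 to 0.987), a description across genes. The first SD is of single sections and the second of means over a pair of sections, so that the 2 values are not on an equal footing.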

How the data were processed

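The authors trimmed the reads with fastp 0.20.0 and cutadapt 1.16, mapped them to GRCm38 with HISAT2 2.1.0 and counted reads within 10 kb of 3′ ends with HTSeq 0.10.0, per the labels and the methods of the study. The deposited read counts per gene were used as they are, and contain no molecular identifiers, so that intervals cover counting error alone. The methods state that best-matched reads were counted, strand settings are not given in the sources used here, and counts of genes with processed pseudogenes are uncertain. Of 577 labeled samples 562 were used, and the other 15, libraries of another adaptor design, were not used here.

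RPM were calculated over protein-coding genes and analyzed as log2 (RPM+1) with Python 3.11.15 (pandas 2.3.3, scipy 1.17.1). A gene was at the level when its mean reached 4 in a group, and higher or lower from a difference of 1. Pools and bulk were tested with edgeR 4.0.16 (R 4.3.3; TMM, filterByExpr, quasi-likelihood, Benjamini-Hochberg adjustment), and with DESeq2 1.42.0 as an alternative. Groups of cells were not tested. Shares of cells have exact Clopper-Pearson 95% intervals, a count of 0 allows 3 counts, and sums have exact Poisson intervals. Positions are from GENCODE vM21, where 95 of the 96 identifiers matched. Scripts were tested on simulated data.

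The text names, per comparison, the 5 genes that differed most each way or, in tests, had the smallest adjusted p, the 5 highest genes per cell type, the isoforms of complexes IV and V, and genes of other lists with large differences. A few further genes, among them those lower in every preparation and those of the citrate cycle, were chosen after their values were seen. The genes and lists were chosen with earlier results of these data known. Alternatives were pseudocounts of 0.1 and 10 RPM, summed counts, TMM, totals without mitochondrially encoded genes, no filter, thinning, spike-in scaling, left-out libraries, a replicate block and near-identical pairs counted once. The last of these, and the alternatives for the SMART-Seq v4 and formalin comparisons other than spike-in scaling and leaving out formalin primary oocytes, were chosen after seeing the data.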

Additional observations from a re-analysis of the deposited data

Results flagged for a closer look

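Of 27 values tested for a library far from its group, in 9 groups of 4 to 10 libraries, 4 stood apart, and chance flags about 1 in 20. In DRaqL-SMART-Seq v4, 1 secondary-to-antral oocyte (replicate 1) gave 0.996% of its reads to mitochondrially encoded genes, against 0.450% to 0.725% in the others. Bulk granulosa replicate 4 gave 10.04%, against 2.22% to 5.25% in the others. After formalin, the median log2 (RPM+1) over the 96 genes was 4.08 in secondary-to-antral oocyte replicate 3, against 5.86 to 6.28 in the others. In the same-mouse experiment, it was 5.36 in LCM oocyte replicate 8, against 6.06 to 6.50 in the others.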

How the results depend on the processing

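For the comparisons of groups of cells, medians in this part are over the genes at the level. Under all alternatives run for the stage comparisons, which did not include spike-in scaling, the median difference kept its direction. It was at -0.36 to -0.13 in DRaqL-SC3-seq, -0.81 to -0.73 in SMART-Seq v4, -0.92 to -0.51 in DRaqL-SMART-Seq v4 and -0.78 to -0.40 after formalin. Leaving out each formalin primary oocyte gave -0.78 to -0.47 and each secondary-to-antral oocyte -0.69 to -0.40. TMM scaling moved DRaqL-SMART-Seq v4 to -0.51 and oocytes against mESCs to 0.26. Summed counts moved oocytes against granulosa cells to 0.27 in DRaqL-SC3-seq, 0.30 in SMART-Seq v4 and 0.023 after formalin, and turned granulosa cells against mESCs to 0.48 and Ndufs1 in that comparison to 0.062. Scaling to spike-in reads gave 6.33 in SMART-Seq v4 and 4.00 after formalin for oocytes against granulosa cells, and turned Atp5g3 to 3.16 in the first and Atp5j to 2.05 in the second. The same-mouse medians stayed at -3.48 to -1.79 in granulosa cells and -1.10 to -0.82 in oocytes, whereas mESCs isolated with LCM against fresh mESCs ranged from -0.05 to 0.12. In the pools, DESeq2 called 1 of the 96 genes and each other alternative 0. All genes called numbered 44 in edgeR, 409 in DESeq2, 0 without the pools rich in oocyte RNA and 5 to 34 without a pool number. With the pool number as a replicate block, 3 genes and 0 of the 96 were called. The correlations of same-numbered pools were 0.006 to 0.188, against 0.024 to 0.141 for the most alike pool of another number. The same-numbered pool was the most alike for pools 1, 6 and 7 and not for pools 2, 3, 4 and 5. These values do not decide whether the numbers pair the pools, and the main test took the pools as unpaired. Bulk against pools called 12 genes, 359 in DESeq2, 463 with no filter, 84 with upper-quartile scaling, 3 against neighboring pools, 0 against non-neighboring pools, 0 without pools rich in oocyte RNA and 3 to 46 without a pool number, with 0 of the 96 each time, and Ndufb2 turned to -0.062 against non-neighboring pools alone. Upper-quartile scaling moved the median of the 90 genes tested to -0.02 and of all genes to 0.18. Except where a setting holds fewer samples or genes, the cause was not tested. Of the other values, 2893 stayed within the spread over cells or on their side of the threshold, and 162 moved further, among them genes within 1 of 0 that crossed it under summed counts or spike-in scaling. Depth limits the low isoforms, since a library of 12748 reads cannot show a gene at a few RPM.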

Other observations

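Sdhd differed between preparations of the same cell type. Its mean log2 (RPM+1) was 4.01 in DRaqL-SC3-seq oocytes, 7.01 and 6.63 in primary and secondary-to-antral oocytes of SMART-Seq v4, 4.04 in oocytes isolated with LCM and 8.39 in dissociated oocytes of the same-mouse experiment. Cox8b had reads in 30 of 44 DRaqL-SC3-seq oocytes and 15 of 16 serial sections of oocytes, but in 0 of 18 SMART-Seq v4 and 0 of 12 formalin oocytes. In 3 granulosa libraries labeled as mixed, the 96 genes took 1.12% to 1.32% of the reads.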
